A study of Sus scrofa with 31 samples.

Results

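Of the 21313 genes in the arm 1 table of a pig heart preservation study, 43 carry symbols that begin with PSMA, PSMB, PSMC, PSMD, PSME, PSMF or PSMG, and of the 25149 genes in the arm 2 table, 28 do. These symbols name the subunits of the proteasome, its activators, its inhibitor and its assembly chaperones, and members were chosen by symbol alone, without use of any measured value. The tables share 25 of the symbols, and 46 occur in either. In arm 1 the members comprised 6 genes of the 20S alpha ring, 5 constitutive and 3 inducible genes of the 20S beta ring, 6 ATPases and 11 non-ATPase subunits of the 19S particle, 3 chaperones of 19S assembly, 2 chaperones of 20S assembly and 5 activators or inhibitors. The other 2, PSMC3IP and PSME3IP1, share the prefix but are not subunits.

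The proteasome is the protease complex that degrades proteins tagged with ubiquitin. Its 20S core is a barrel of alpha rings, which gate the entry, and beta rings, which hold the catalytic sites. The 19S particle that caps it binds ubiquitinated proteins, removes the ubiquitin and unfolds the substrate with a ring of ATPases. Interferon signaling exchanges the catalytic beta subunits PSMB6, PSMB7 and PSMB5 for PSMB9, PSMB10 and PSMB8, which gives the immunoproteasome, and raises the activator made of PSME1 and PSME2. In heart muscle the ubiquitin and proteasome system takes part in the turnover of sarcomere proteins.

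Arm 1 followed the myocardium of 6 pigs through cold preservation, with biopsies at 0, 12, 24 and 48 h. Pigs 2, 4 and 6 were labelled HOPE and pigs 1, 3 and 5 SCS, usually read as hypothermic oxygenated perfusion and static cold storage, which gave 24 libraries and 3 pigs in each of 8 groups. Arm 2 sampled hearts after preservation and a further 2 h of normothermic machine perfusion (NMP), a warm perfusion of the isolated heart. It held 1 library after 24 h of SCS and 2 each after 3, 24 and 48 h of HOPE. No gene was altered in any group, and breed, age and sex are not given in the sources used here. The labels call the cells cardiomyocytes, but whole biopsies were sequenced: all 8 markers of ventricular cardiomyocytes were above 0 in every arm 1 library, and so were all 8 of endothelial cells and all 8 of T and NK cells. In such tissue, fewer cells of a type and less RNA per cell cannot be told apart. Libraries of the same pig share an animal, whereas nothing in the labels ties the arm 2 libraries to animals, so p-values there measure the spread between those libraries.

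Arm 1 libraries held 19722065 to 35099406 recovered reads. The 13 mitochondrially encoded genes took 30.8% ± 1.54 of normalized counts in HOPE hearts at 48 h and 63.5% ± 17.4 in SCS hearts at 48 h (SD, n = 3 each), up to 82.4% in SCS pig 5. The deposited scaling by 1 size factor per library kept the median log2 difference over all tested genes close to 0, at 0.02 between HOPE and SCS at 48 h. Scaling to equal totals moved that median to 1.12, so differences are given below against the median of all genes wherever the scaling matters. Arm 2 values are TPM, whose depth is unknown. Fold changes are log2 values with their SE from limma fits on log2(value + 1), which understates the change of low genes, and a gene passed at a Benjamini-Hochberg adjusted p under 0.05 over all genes of its arm.

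Together the members took 0.294% to 0.431% of the normalized counts outside the mitochondrially encoded genes in the arm 1 libraries. Of the 43 members, 42 had a mean of at least 10 and were tested, from PSMD10 with a mean of 189 normalized counts to PSMC3 with 3802, and PSMC3IP was left out with a mean of 8.56. Levels can be ordered between genes only in arm 2, where TPM accounts for gene length. There the tested members ran from PSMC3IP at a mean of 1.32 TPM to PSMB7 at 140.4 TPM, with a median of 43.3 TPM. The catalytic beta genes PSMB7 and PSMB6 stood highest, with PSMB7 at 120.0 to 198 TPM and PSMB6 at 107 to 177 TPM in the 6 HOPE libraries, so the top 2 overlapped. PSMA6, an alpha ring gene, at 92.9 to 159.7 TPM, and PSMC5, an ATPase, at 92.5 to 149 TPM, reached into their range. PSMD1, a scaffold of the 19S base, lay far lower, at 11.9 to 16.7 TPM in those libraries, and PSMD5, a 19S assembly chaperone, at 0.771 to 2.73 TPM.

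HOPE hearts differed from SCS hearts in 2 members after 24 h and the same 2 after 48 h, both of them higher: PSMD1 and PSMD2, the large scaffold subunits of the 19S base that hold receptors and shuttles for ubiquitin. Most other non-ATPase subunits of the 19S particle leaned the same way without passing. The 3 inducible beta subunits and PSME2 had lower values in HOPE hearts. They passed only in part, with the pig fitted as a block or under a few other settings. No alpha ring or constitutive beta ring gene of the 20S core passed under the deposited scaling with all pigs. Over all 42 tested members the median log2 difference between HOPE and SCS at 0, 12, 24 and 48 h was -0.04, -0.09, 0.12 and 0.11, against -0.02, 0.00, 0.01 and 0.02 over all 14141 tested genes. These member medians were not stable: with a pig or library left out they ran from -0.03 (without pig 3) to 0.24 (without pig 1) at 24 h and from 0.02 (without pig 5) to 0.23 (without pig 1) at 48 h, and quantile normalization gave 0.02 and 0.01. With limma, 2 of 42 members passed at 24 h, where 2.04% of all genes passed and 1.27% were higher. At 48 h again 2 of 42 passed, where 6.25% of all genes passed and 3.84% were higher. An unadjusted p under 0.05 was reached by 14 members at 24 h, against 26.8% of all genes, and by 12 at 48 h, against 27.8%. On counts so small nothing is read as particular to the proteasome. Both times come from the same 6 hearts and are not independent of each other.

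**Figure D1:**
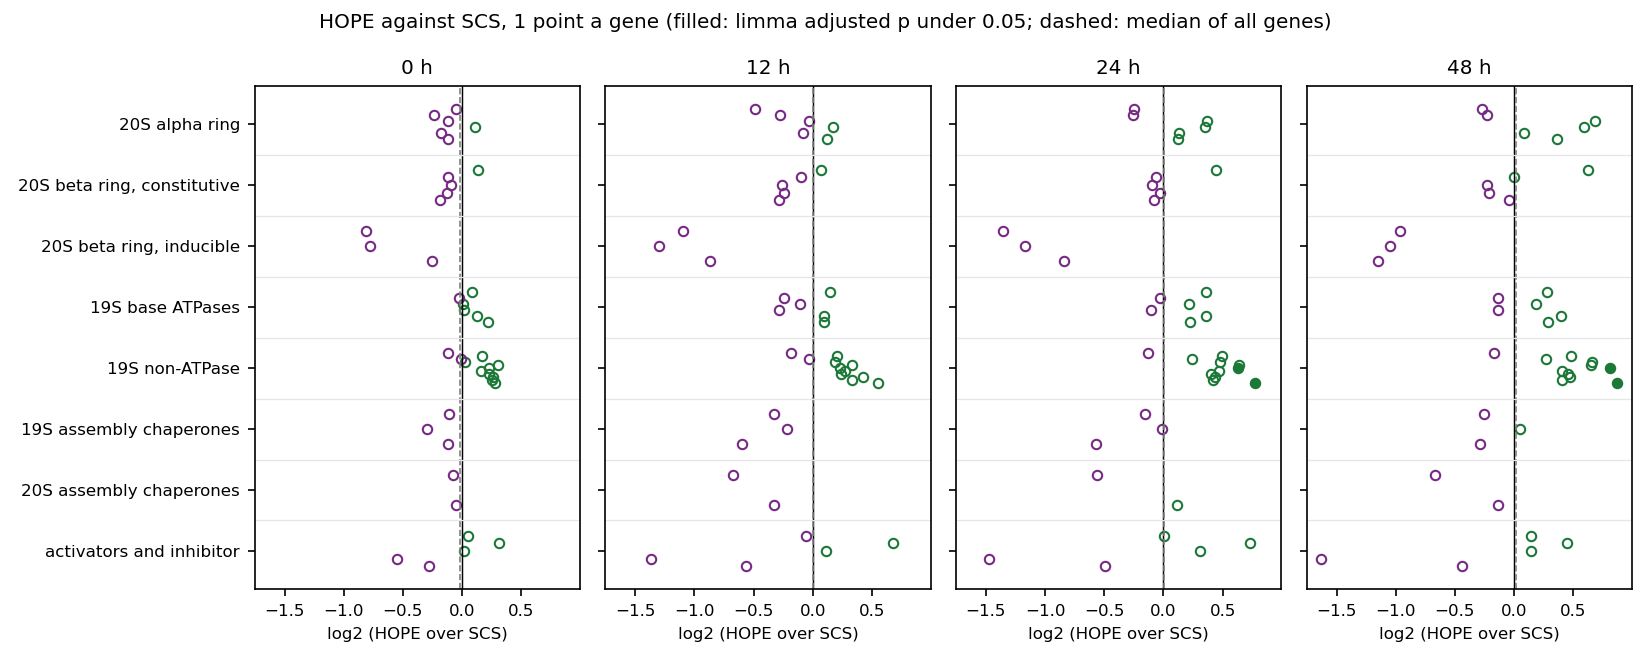
Log2 difference between HOPE and SCS hearts (x axis) for each tested proteasome gene, grouped by role down the y axis, with filled points for an adjusted p under 0.05, a dashed line at the median of all genes and 1 panel for each storage time of 0, 12, 24 and 48 h. At 24 and 48 h, 10 of 11 non-ATPase 19S genes lie above 0 and all 3 inducible beta genes lie below it.

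PSMD1 lies on chromosome 15 of Sscrofa11.1, from 131807594 to 131912194 in RefSeq. In HOPE hearts (pigs 2, 4 and 6) its normalized counts were 1764, 1509 and 963 in the 0 h biopsies, 1666, 1618 and 1309 after 12 h, 1809, 1857 and 1954 after 24 h, and 1797, 1781 and 1699.8 after 48 h. In SCS hearts (pigs 1, 3 and 5) they were 1085, 1162 and 1142 in the 0 h biopsies, 973, 1099.6 and 1044 after 12 h, 1262, 947 and 1101 after 24 h, and 1031, 933 and 924 after 48 h. The groups overlapped at 0 h, where HOPE pig 6 was the lowest of all 6 hearts, and from 12 h on every HOPE value stood above every SCS value. PSMD1 averaged 1873 ± 74.0 in HOPE and 1103 ± 158 in SCS hearts at 24 h, and 1759 ± 52.3 in HOPE and 963 ± 59.5 in SCS hearts at 48 h (SD, n = 3 each). The log2 differences at 0, 12, 24 and 48 h were 0.28, 0.55, 0.77 and 0.87, each with an SE of 0.18. PSMD1 passed at 24 h (limma, adjusted p = 0.0365) and 48 h (limma, adjusted p = 0.0167), and not at 0 h (limma, adjusted p = 0.677) or 12 h (limma, adjusted p = 0.253). The size of the difference held when a pig was left out, at 0.67 to 0.87 at 24 h and 0.84 to 0.92 at 48 h, but the call was lost at both times without pig 2, 3, 4 or 5 (limma, adjusted p = 0.0723 to 0.235).

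PSMD2, on chromosome 13 from 122187500 to 122199397, followed the same course. Its normalized counts in HOPE hearts were 3036, 3125 and 2457 in the 0 h biopsies, 2774, 3325 and 3159 after 12 h, 3223, 3574 and 4291 after 24 h, and 3225, 3498 and 3471 after 48 h. Those in SCS hearts were 2456, 2317 and 2533 in the 0 h biopsies, 2499, 2489.8 and 2882 after 12 h, 2484, 2202 and 2431 after 24 h, and 2004, 1989 and 1836 after 48 h. The groups overlapped at 0 and 12 h and were separate at 24 and 48 h, and the 3 SCS libraries at 48 h were the lowest of all 24. PSMD2 averaged 3696 ± 545 in HOPE and 2372 ± 150 in SCS hearts at 24 h, and 3398 ± 150 in HOPE and 1943 ± 92.8 in SCS hearts at 48 h (SD, n = 3 each). The log2 difference was 0.63 ± 0.14 at 24 h (limma, adjusted p = 0.0365) and 0.81 ± 0.14 at 48 h (limma, adjusted p = 0.00973), against 0.23 ± 0.14 at 0 h (limma, adjusted p = 0.677). Leaving out pig 2, 3, 4 or 5 again lost the call at both times (limma, adjusted p = 0.0506 to 0.229), with log2 differences of 0.52 to 0.73 at 24 h and 0.77 to 0.84 at 48 h over the pigs left out. At 48 h the call of both was also lost without the 48 h library of SCS pig 5 alone (limma, adjusted p = 0.0754 and 0.0532). At 24 h neither gene passed under quantile normalization or scaling to equal totals, where PSMD1 differed by 0.64 and 1.16 and PSMD2 by 0.46 and 1.02 on the log2 scale.

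Ratios within a library do not depend on the scaling between libraries. The log2 ratio of PSMD1 to PSMA1, an alpha ring gene, was 0.81, 0.59 and 0.67 in HOPE hearts at 48 h and -0.23, 0.25 and 0.53 in SCS hearts at 48 h. At 24 h it was 0.77, 0.75 and 0.68 in HOPE and -0.04, 0.15 and 0.13 in SCS hearts. Each HOPE value was above each SCS value at both times, though by a small margin over SCS pig 5 at 48 h. The same order stood in the 0 h biopsies, at 0.70, 0.58 and 0.15 in HOPE and 0.14, -0.05 and 0.14 in SCS hearts, where HOPE pig 6 was barely above 2 SCS pigs, and at 12 h, so this ratio was separate at 0 h already. For PSMD2 the ratio was 1.66, 1.56 and 1.70 in HOPE and 0.73, 1.34 and 1.52 in SCS hearts at 48 h, without overlap. It did not overlap at 0 h either, at 1.48 to 1.63 in HOPE and 0.95 to 1.32 in SCS hearts, but did at 12 h, where SCS pig 5 reached 1.66 and HOPE pig 4 had 1.39.

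**Figure D2:**
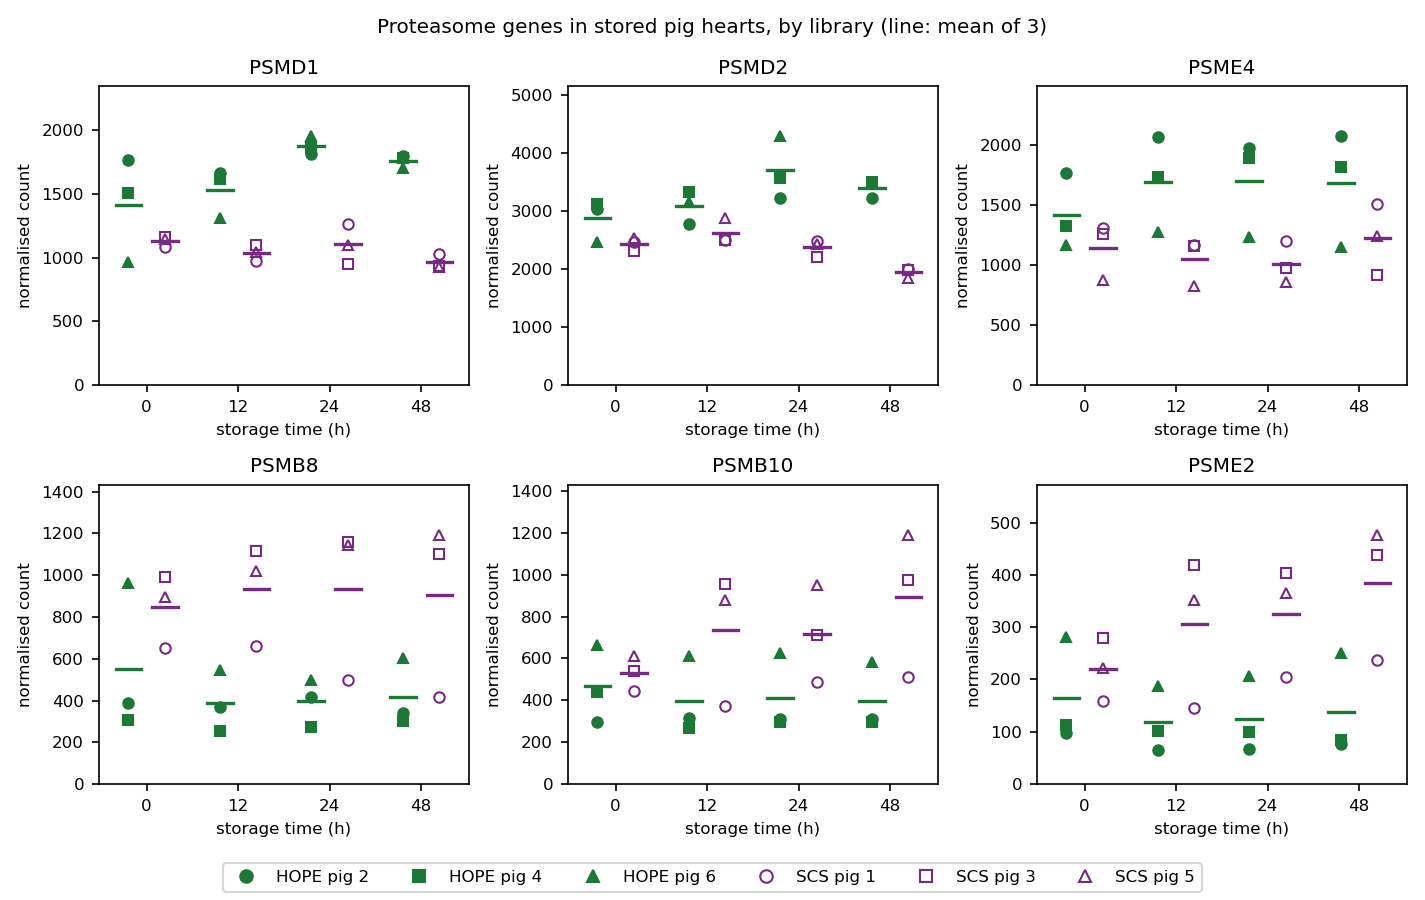
Normalized counts (y axis) of PSMD1, PSMD2, PSME4, PSMB8, PSMB10 and PSME2 in each arm 1 library at 0, 12, 24 and 48 h (x axis), with HOPE and SCS hearts apart and 1 point per pig. PSMD1 and PSMD2 are separate between HOPE and SCS at 24 and 48 h, and PSME2 is higher in SCS pigs 3 and 5 than in every HOPE library at those times.

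The other 9 non-ATPase genes of the 19S particle form its lid or bind ubiquitin. Of all 11, 10 had a positive log2 difference between HOPE and SCS at both 24 and 48 h, with a median of 0.47 each time, and PSMD8 was the exception at -0.13 ± 0.19 and -0.17 ± 0.19. The count of 10 stayed with any pig left out, and relative to the median of all genes it was also 10 under each of 4 other scalings. PSMD3, a lid subunit, had 2336, 2275 and 2901 normalized counts in HOPE and 2052, 1365 and 1451 in SCS hearts at 24 h, a log2 difference of 0.64 ± 0.21 (limma, adjusted p = 0.0803). PSMD4, the ubiquitin receptor of the 19S base, had 738, 869.5 and 752 in HOPE and 727, 475 and 354 in SCS hearts at 48 h, a log2 difference of 0.66 ± 0.21 (limma, adjusted p = 0.0602). The values of both genes were separate between HOPE and SCS at 24 h and at 48 h, with SCS pig 1 close below the HOPE values at 48 h. Without overlap between groups, 10 members were higher in HOPE at 24 h, where 13.9% of all genes were, and 7 at 48 h, where 10.5% of all genes were. These 7 were PSMA4, PSMD1, PSMD2, PSMD3, PSMD4, PSMD7 and PSMD14, the last of which encodes the deubiquitinase of the lid. Non-overlapping and lower in HOPE were 3 members at 24 h (PSMB9, PSMD10 and PSME1), where 12.9% of all genes were, and 0 at 48 h, where 10.2% were.

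The 6 ATPases PSMC1 to PSMC6, which form the ring that unfolds substrates, did not pass at any time. Their log2 differences between HOPE and SCS ran from -0.10 (PSMC3) to 0.36 (PSMC6) at 24 h and from -0.14 (PSMC5) to 0.39 (PSMC2) at 48 h. The median was 0.22 at 24 h and 0.23 at 48 h, and 4 of 6 were positive both times. PSMC3 was the member with the most counts, at 2920, 3376 and 5353 in HOPE and 4154, 3979 and 3965 in SCS hearts at 24 h, where pig 6 was the highest and the groups overlapped.

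In the 20S core none of 6 alpha ring genes and none of 5 constitutive beta ring genes passed at any time, by limma with or without the block. PSMA4, with a log2 difference of 0.59 ± 0.20 at 48 h (limma, adjusted p = 0.0692), passed at 48 h under TMM scaling, under scaling to equal totals with or without the mitochondrially encoded genes, and without pig 1 or pig 6. PSMA1 and PSMB7 passed at 48 h without pig 1, as PSMB7 did at 24 h. The alpha ring median was 0.13 at 24 h and 0.22 at 48 h, with 4 of 6 positive, but 3 of 6 at 48 h without pig 3, pig 5 or pig 6. PSMA5 stood out in SCS pig 5, with 722, 851 and 1218 normalized counts in HOPE and 672, 740.1 and 363 in SCS hearts at 48 h, a log2 difference of 0.68 ± 0.25 (limma, adjusted p = 0.0919). The constitutive beta genes PSMB1, PSMB2, PSMB3, PSMB4 and PSMB7 had medians of -0.06 at 24 h and -0.04 at 48 h. PSMB7, which carries the trypsin-like site, had the highest of these differences, with 1115, 1226 and 1618 normalized counts in HOPE and 1479, 683 and 593 in SCS hearts at 48 h. SCS pig 1 lay among the HOPE values there, and the log2 difference of 0.63 ± 0.29 did not pass (limma, adjusted p = 0.164). PSMB5, PSMB6, PSMG2 and PSMG4 were not analysed here in arm 1.

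The inducible subunits of the immunoproteasome had lower values in HOPE than in SCS hearts at every time, including 0 h. Their 3 genes had median log2 differences of -0.78, -1.10, -1.17 and -1.05 at 0, 12, 24 and 48 h, and all 3 were negative each time. PSMB8 and PSMB9 lie close to each other on chromosome 7, from 25058456 to 25061666 and from 25072133 to 25077508. PSMB8, the inducible form of the chymotrypsin-like subunit, had 416, 274 and 499 normalized counts in HOPE and 497, 1158 and 1142 in SCS hearts at 24 h. SCS pigs 3 and 5 were high, and SCS pig 1 lay beside HOPE pig 6. The log2 difference of -1.17 ± 0.46 did not pass (limma, adjusted p = 0.119) but did with the pig as a block (limma, adjusted p = 0.0405). PSMB10, on chromosome 6 from 28544910 to 28547609, is the inducible form of the trypsin-like subunit. It had 309, 298 and 584 normalized counts in HOPE and 512, 974 and 1189.9 in SCS hearts at 48 h, where HOPE pig 6 was above SCS pig 1. Its log2 difference of -1.15 ± 0.43 did not pass without the block (limma, adjusted p = 0.0935) but did with it (limma, adjusted p = 0.0298). It passed in 3 of 19 fits, the block among them. The 19 include the main fit and those with a pig or library left out. PSMB9, the inducible form of the caspase-like subunit, had 156, 89.4 and 237 normalized counts in HOPE and 254, 456 and 481 in SCS hearts at 24 h, and its log2 difference of -1.35 ± 0.56 did not pass (limma, adjusted p = 0.137). The log2 ratio of PSMB10 to PSMB7, the subunit it replaces, was -1.85, -2.04 and -1.47 in HOPE and -1.53, 0.51 and 1.00 in SCS hearts at 48 h, so SCS pig 1 lay among the HOPE hearts and pigs 3 and 5 far above them. Under scaling to equal totals PSMB8 and PSMB9 turned positive at 48 h, PSMB10 came to -0.04 and the median of the 3 genes became 0.07, against a median of 1.12 over all genes.

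PSME2 encodes a subunit of the interferon-inducible activator that pairs with PSME1, its neighbor on chromosome 7 (PSME2 from 75154570 to 75157871, PSME1 from 75161830 to 75164531). In HOPE hearts PSME2 had normalized counts of 97.6, 113 and 282 in the 0 h biopsies, 64.8, 102 and 187 after 12 h, 67.0, 100.0 and 207 after 24 h, and 77.2, 84.8 and 251 after 48 h. In SCS hearts it had 159, 279 and 222 in the 0 h biopsies, 146, 419.6 and 351 after 12 h, 205, 403 and 365 after 24 h, and 237, 439 and 477 after 48 h. HOPE pig 6 was the highest of the HOPE hearts at each time and overlapped with SCS pig 1 at 24 and 48 h. The log2 differences at 0, 12, 24 and 48 h were -0.55, -1.37, -1.47 and -1.63, each with an SE of 0.54. PSME2 did not pass at 24 h (limma, adjusted p = 0.103) or 48 h (limma, adjusted p = 0.0655), and passed at both with the pig as a block (limma, adjusted p = 0.0259 and 0.0138). It also passed at 48 h without pig 1 or pig 6, at -1.94 and -2.17 (limma, adjusted p = 0.0212 and 0.00311). PSME1 had 1342, 1999 and 2270.1 normalized counts in HOPE and 2516, 2700.2 and 2511 in SCS hearts at 24 h, a log2 difference of -0.49 ± 0.23 (limma, adjusted p = 0.173). The log2 ratio of PSME2 to PSME1 was -4.12, -4.25 and -3.16 in HOPE hearts at 48 h and -3.16, -2.60 and -2.21 in SCS hearts at 48 h, so the 2 genes did not differ by the same factor. With the block, 5 members passed at 24 h (PSMD1, PSMD2 and PSME4 higher, PSMB8 and PSME2 lower) and 9.87% of all genes did. At 48 h, 4 passed with it (PSMD1 and PSMD2 higher, PSMB10 and PSME2 lower) and 11.5% of all genes did.

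Marker genes of T and NK cells, which carry inducible subunits at a high level, were also lower in HOPE hearts. All 8 of 8 markers had lower values in HOPE than in SCS hearts at 24 and 48 h, and 3 and 5 of them passed. Over all genes 0.771% passed as lower at 24 h and 2.41% at 48 h. Their median log2 difference was -0.59 at the start, -1.49 at 24 h and -1.34 after 48 h. Their summed normalized counts were 340 to 413 in HOPE and 820 to 1945 in SCS hearts at 24 h, and 248 to 402 in HOPE and 772 to 1221 in SCS hearts at 48 h, and none of the 8 markers was at 0 in any library. By pig they followed the inducible genes only in part. At 24 h the sums were 995, 1945 and 820 in SCS pigs 1, 3 and 5, whereas PSMB8 was lowest in pig 1. At 48 h the sums were 772, 1221 and 1067 in the same pigs, lowest in pig 1 as for PSMB10. For the 4 general leukocyte markers the medians were -0.86 and -0.58, with 2 lower calls each time. Sums of macrophage and monocyte markers overlapped at 24 h, at 7804, 4775 and 6304 in HOPE and 8178, 7588 and 7075 in SCS hearts. At 48 h they were 6369, 7051 and 9056 in HOPE and 5350, 10071 and 3061 in SCS hearts. There SCS pig 5 was lowest, although its PSMB10 was the highest. Endothelial markers ran with the inducible genes only in part. Their summed normalized counts were 25626, 16800 and 25952 in HOPE and 19893, 47309 and 51267 in SCS hearts at 24 h, and 22899, 21052 and 32529 in HOPE and 11336, 41753 and 41011 in SCS hearts at 48 h. Among the SCS hearts pig 1 was thus lowest in endothelial markers, as in PSMB8 at 24 h and PSMB10 at 48 h. Its endothelial sum at 48 h was below every HOPE value, whereas its PSMB10 there was above HOPE pigs 2 and 4. The T and NK cell sum of SCS pig 1, 772 at 48 h, was above every HOPE value. All 8 endothelial markers had lower values in HOPE at 24 h and 5 of 8 at 48 h, and 0 passed. The part of leukocytes and of endothelial cells in the lower values of the inducible genes and PSME2 was not tested. B2M, the light chain of MHC class I and a partner in antigen presentation, differed by -1.31 ± 0.54 at 48 h (limma, adjusted p = 0.122). It was called lower only with the block (limma, adjusted p = 0.0328). Over a list of 12 antigen presentation genes, B2M included, the summed normalized counts overlapped at 48 h. They were 25646, 27270 and 28507 in HOPE and 20215, 38210 and 34948 in SCS hearts.

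Among the other activators, PSME4, a large cap found on proteasomes in the nucleus, had 1978, 1891 and 1237 normalized counts in HOPE and 1197, 976 and 863 in SCS hearts at 24 h. The groups did not overlap, although HOPE pig 6 was close to SCS pig 1. The log2 difference of 0.73 ± 0.27 did not pass without the block (limma, adjusted p = 0.103) but did with it (limma, adjusted p = 0.0475). It passed in 2 of the same 19 fits, the block among them. By 48 h, at 2077, 1819 and 1149 in HOPE and 1510.1, 918 and 1245 in SCS hearts, the groups overlapped. PSME3, the nuclear activator, differed by 0.31 ± 0.14 at 24 h (limma, adjusted p = 0.167). The inhibitor PSMF1 differed by 0.00 ± 0.16 at 24 h and 0.14 ± 0.16 at 48 h. Among the chaperones, PSMD10, known as gankyrin, had 148, 179 and 167 normalized counts in HOPE and 229.9, 264 and 238 in SCS hearts at 24 h without overlap, a log2 difference of -0.57 ± 0.17 (limma, adjusted p = 0.0724). PSMG3, which assists alpha ring assembly, differed by -0.56 ± 0.36 at 24 h and -0.67 ± 0.36 at 48 h (limma, adjusted p = 0.318 and 0.233). PSMD5, PSMD9 and PSMG1 differed by -0.16 to 0.11 at 24 h.

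In the first biopsies, taken at 0 h, no member passed by limma, edgeR or DESeq2, 0 of 42 had an unadjusted limma p under 0.05, and 7.21% of all genes did. At 12 h, 0 members passed by the 3 tools, where 0.0141% of all genes passed with limma, 7 of 42 had an unadjusted limma p under 0.05 and 16.3% of all genes did. Without pig 6, 6 of 42 members passed at 12 h with limma, 3 higher and 3 lower in HOPE, where 10.1% of all genes passed.

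Changes over storage within each kind of preservation were small beside the spread between pigs, and 0 members passed in any of 6 comparisons of 12, 24 or 48 h with 0 h, by limma, edgeR or DESeq2. An unadjusted limma p under 0.05 was reached by 0, 2 and 0 members at 12, 24 and 48 h of HOPE, where 0.53%, 1.52% and 1.39% of all genes reached it. In SCS hearts 0, 1 and 3 members reached it, against 1.14%, 3.41% and 8.08% of all genes. In HOPE hearts all 11 non-ATPase 19S genes had a positive log2 change at each time, with medians of 0.15, 0.31 and 0.23, against 0.01, 0.02 and 0.01 over all genes. Pig 6 carried most of this: its own medians were 0.36, 0.80 and 0.50 at 12, 24 and 48 h, against -0.07, 0.11 and 0.07 in pig 2 and 0.08, 0.08 and 0.15 in pig 4. Without pig 6, 9 of 11 were positive at 24 h and the median was 0.14. Pig 6 also had the lowest PSMD1 and PSMD2 of the HOPE hearts at 0 h. Cell markers moved in pig 6 as well: at 12, 24 and 48 h the median log2 change of the ventricular cardiomyocyte markers was 0.15, 0.50 and 0.38, that of the endothelial markers -0.62, -0.82 and -0.57, and that of the T and NK cell markers -1.20, -1.65 and -1.50. Their part in its proteasome values was not tested. The 7 members above their own 0 h values in HOPE at 24 h without overlap were PSMC2, PSMD1, PSMD2, PSMD3, PSMD6, PSMD14 and PSME3, where 2.48% of all genes were.

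In SCS hearts the 3 pigs went different ways. The median change of the non-ATPase 19S genes at 48 h was 0.41 in pig 1, -0.14 in pig 3 and -0.31 in pig 5, and that of the inducible beta genes was -0.64, 0.30 and 0.72 in the same pigs. Markers of ventricular cardiomyocytes parted in the same order as the non-ATPase genes, with median log2 changes of 0.66, -0.13 and -0.46, and those of endothelial cells had -2.21, -0.21 and -0.18, lowest in pig 1 as for the inducible genes. The part of the cell makeup in these changes was not tested. Over the 3 pigs, 9 of 11 non-ATPase genes were negative at 48 h against 0 h, but 8 of 11 were positive without the 48 h library of pig 5. PSMD1, PSMD2 and PSMA5 were below their 0 h values at 48 h without overlap, where 6.21% of all genes were, and PSMA5 and PSMD4 had the lowest changes of all members, at -0.70 ± 0.25 and -0.49 ± 0.21. With the pig as a block, PSME2 rose by 0.77 (limma, adjusted p = 0.0331) and PSMG3 by 0.64 (limma, adjusted p = 0.0479, 376, 388 and 555 normalized counts after 48 h against 244, 225 and 385 at 0 h) at 48 h of SCS, and 2.18% of all genes changed. Both turned negative under scaling to equal totals, at -0.20 and -0.33, against a median of -0.99 over all genes there. PSME2 was above its 0 h value in every SCS pig at 48 h, by 0.57, 0.65 and 1.10 on the log2 scale.

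**Figure D3:**
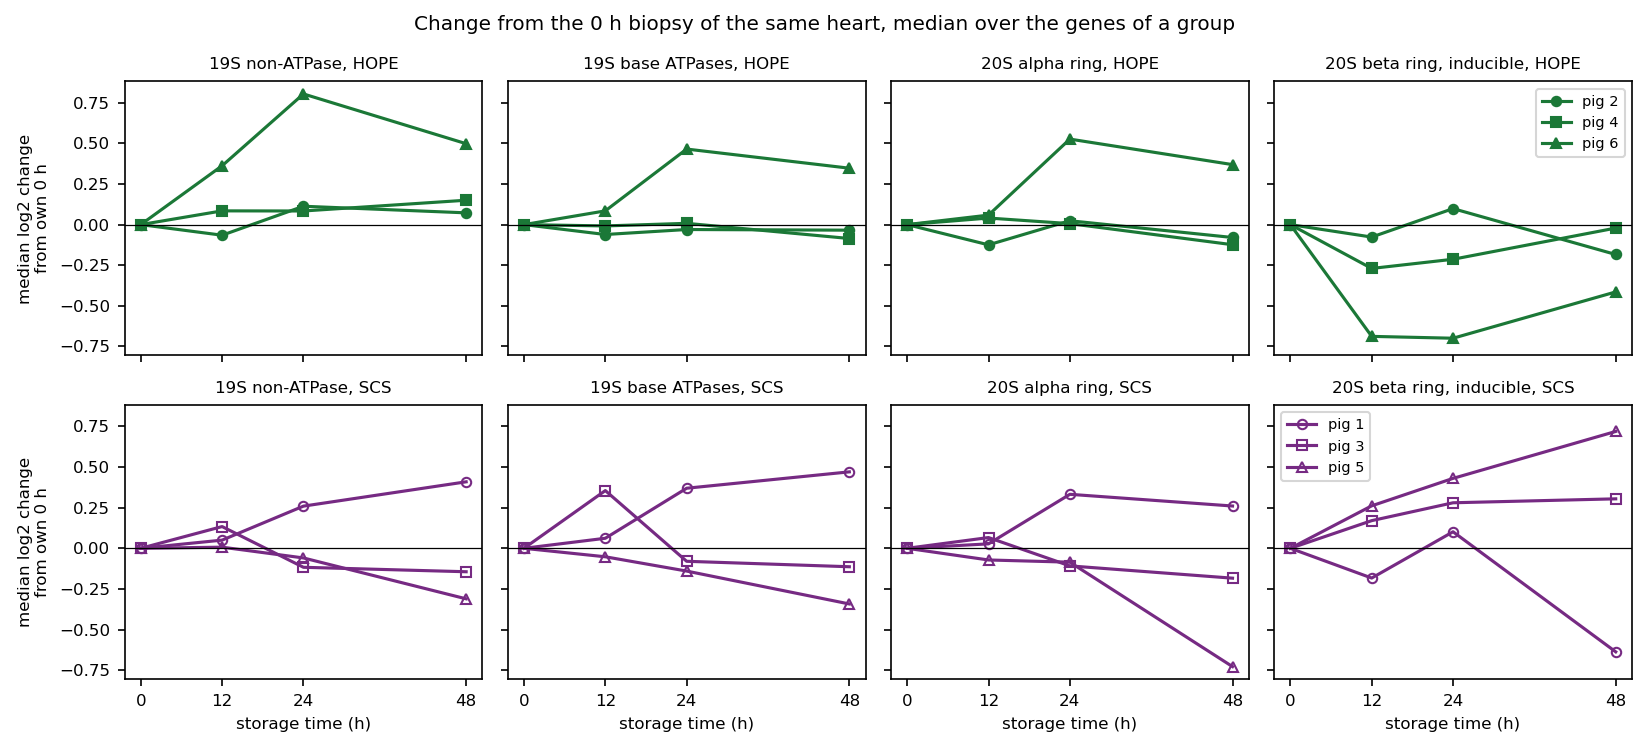
Median log2 change from the same pig's 0 h library (y axis) at 12, 24 and 48 h (x axis), with 1 line per pig, HOPE pigs in the top panels and SCS pigs in the bottom panels. The roles shown are the non-ATPase 19S genes, the 19S ATPases, the alpha ring and the inducible beta genes. HOPE pig 6 lies above the other HOPE pigs for the non-ATPase 19S genes, with medians of 0.36, 0.80 and 0.50, and SCS pigs 1 and 5 part in opposite directions for the inducible beta genes at 48 h.

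The change from 0 h was also compared between HOPE and SCS, as a difference of differences. No member passed at 24 or 48 h by limma with or without the block, by edgeR or by DESeq2, and 0 and 4 of 42 members had an unadjusted limma p under 0.05, where 1.84% and 3.61% of all genes did. The difference at 48 h was 0.59 ± 0.25 for PSMD1, 0.58 ± 0.20 for PSMD2 and -1.08 ± 0.76 for PSME2 (limma, adjusted p = 0.988 each, and 0.302, 0.245 and 0.334 with the block). By pig, the PSMD2 change at 48 h was 0.09, 0.16 and 0.50 in HOPE pigs 2, 4 and 6 and -0.29, -0.22 and -0.46 in SCS pigs 1, 3 and 5, with no overlap in sign. For PSMD1 it was 0.03, 0.24 and 0.82 in HOPE and -0.07, -0.32 and -0.31 in SCS pigs. All 3 HOPE pigs went one way and all 3 SCS pigs the other way in 3 members at 48 h: PSMD1 and PSMD2 upward in HOPE, as did 2.64% of all genes, and PSME2 downward in HOPE, as did 2.32%. At 24 h PSME4 went upward in HOPE (2.21% of all genes) and PSME2 downward (2.08%), and at 12 h 1 member went upward (2.67%) and 4 downward (2.86%). These comparisons share the 0 h biopsies.

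The wider ubiquitin pathway was described with a list of 28 tested genes that are not subunits. Its median log2 difference between HOPE and SCS was 0.33 at 24 h, when 0 passed, and 0.34 at 48 h, when 1 passed. Over all genes 2.04% passed at 24 h and 6.25% at 48 h, 3.84% as higher. No count here is therefore read as particular to a list. UBQLN2, a shuttle that carries ubiquitinated proteins to the proteasome, was higher in HOPE hearts at 48 h by 1.70 ± 0.49 (limma, adjusted p = 0.0469). NFE2L1, the transcription factor known to drive proteasome genes, differed by 0.74 ± 0.27 at 48 h (limma, adjusted p = 0.087), and UBA1, the main ubiquitin-activating enzyme, by 0.53 ± 0.17 (limma, adjusted p = 0.0629). The ribosomal ubiquitin fusion RPS27A leaned the other way, at -0.83 ± 0.34. These 3 genes passed only with the block, with which 11.5% of all genes passed at 48 h. Of the 10 muscle ubiquitin ligases, TRIM55, a sarcomeric ligase, passed at 48 h, with a log2 difference of 1.14 ± 0.31 (limma, adjusted p = 0.04).

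After 24 h of preservation and 2 h of NMP, the library from the SCS heart had lower values of most proteasome genes than the HOPE libraries. All 22 tested members had negative log2 differences from the mean of the HOPE libraries at 24 h and 12 passed as lower, but the SCS group was 1 library, assumed to vary like the HOPE groups, and much of its transcriptome lay apart. With limma, 24.6% of all genes passed as lower and 1.8% as higher, 26.4% in all, and 42.3% had an unadjusted p under 0.05, as did 19 members. The median was -1.26 over the members and -0.73 over all 10986 tested genes. Members took 0.101% of TPM outside the mitochondrially encoded genes in the SCS library and 0.204% to 0.255% in the 6 HOPE libraries.

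The constitutive beta genes showed the biggest differences. PSMB6, the caspase-like subunit, on chromosome 12 from 52096009 to 52098164, had 28.4 TPM in the SCS library and 129 and 169 TPM in the HOPE libraries at 24 h, a log2 difference of -2.34 ± 0.41 (limma, adjusted p = 0.00878). PSMB7 had 33.5 TPM in the SCS library and 120.0 and 198 TPM in the HOPE libraries at 24 h, a log2 difference of -2.17 ± 0.40 (limma, adjusted p = 0.0101). For both genes the SCS value was below all 6 HOPE libraries. All 5 tested ATPases passed (limma, adjusted p = 0.00942 to 0.0423). PSMC2 had 15.4 TPM in the SCS library and 59.4 and 63.6 TPM in the HOPE libraries at 24 h, a log2 difference of -1.93 ± 0.34. PSMC5 had 33.8 TPM in the SCS library and 119 and 131 TPM in the HOPE libraries, a log2 difference of -1.86 ± 0.35. PSMC6, PSMC1 and PSMC3 differed by -1.44 ± 0.42, -1.28 ± 0.33 and -1.20 ± 0.35, and all 5 ATPases had their lowest value of the 7 libraries in the SCS library. Of 8 non-ATPase genes, 3 passed: PSMD2, at 24.6 TPM in the SCS library and 82.3 and 79.9 TPM in the HOPE libraries at 24 h, PSMD1, at 4.13 TPM against 13.6 and 15.5 TPM, and PSMD11, at 14.2 TPM against 38.6 and 40.04 TPM. The activators PSME3, at 11.2 TPM against 52.7 and 42.6 TPM, and PSME4, at 11.6 TPM against 31.0 and 26.9 TPM, passed at -1.98 ± 0.37 and -1.24 ± 0.33 (limma, adjusted p = 0.0113 and 0.0338). PSMD12, a lid subunit, at -0.65 ± 0.33, the chaperone PSMD5, at -0.60 ± 0.45, and PSMC3IP, which is no subunit, at -0.19 ± 0.71, had smaller differences than the median of all genes.

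**Figure D4:**
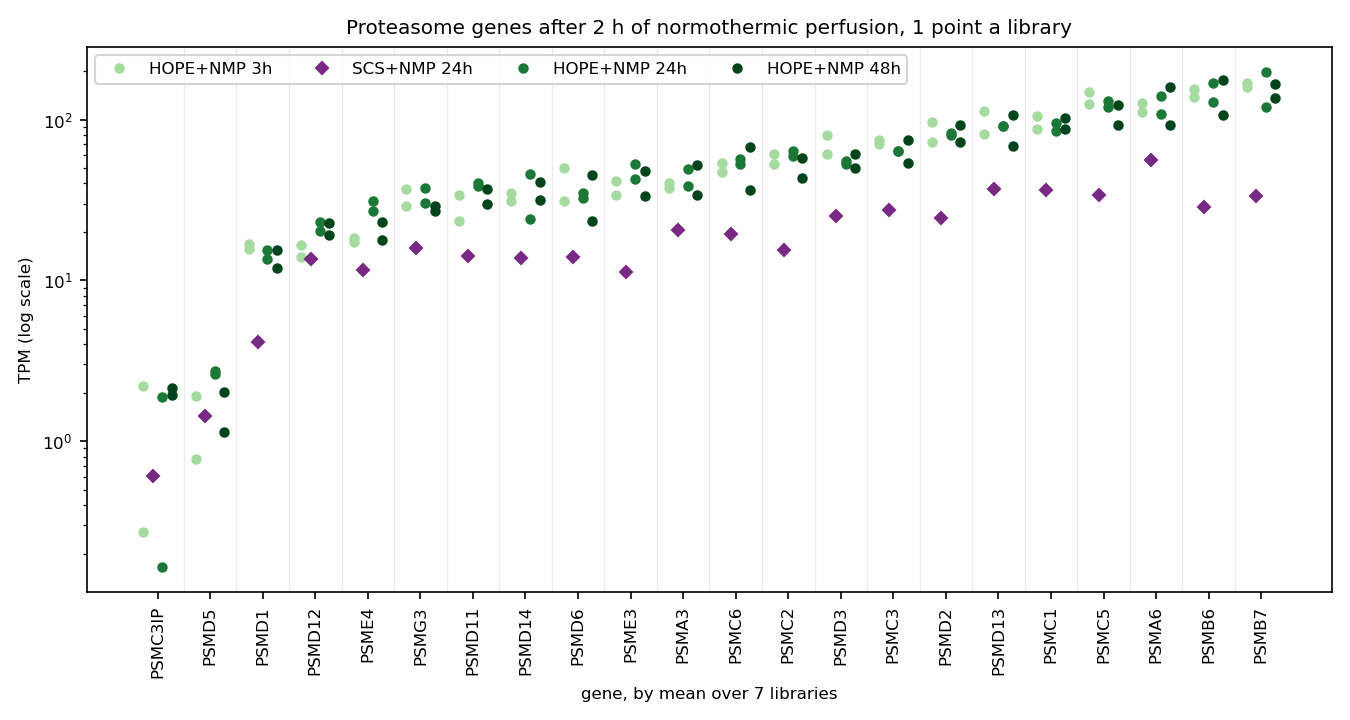
TPM on a log axis (y axis) of the 22 tested proteasome genes (x axis) in each of the 7 arm 2 libraries, with the SCS library after NMP and the HOPE libraries after 3, 24 and 48 h and NMP. The SCS points lie at the bottom of nearly every gene, for example at 28.4 TPM for PSMB6 against 107 to 177 TPM in the HOPE libraries.

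**Figure D5:**
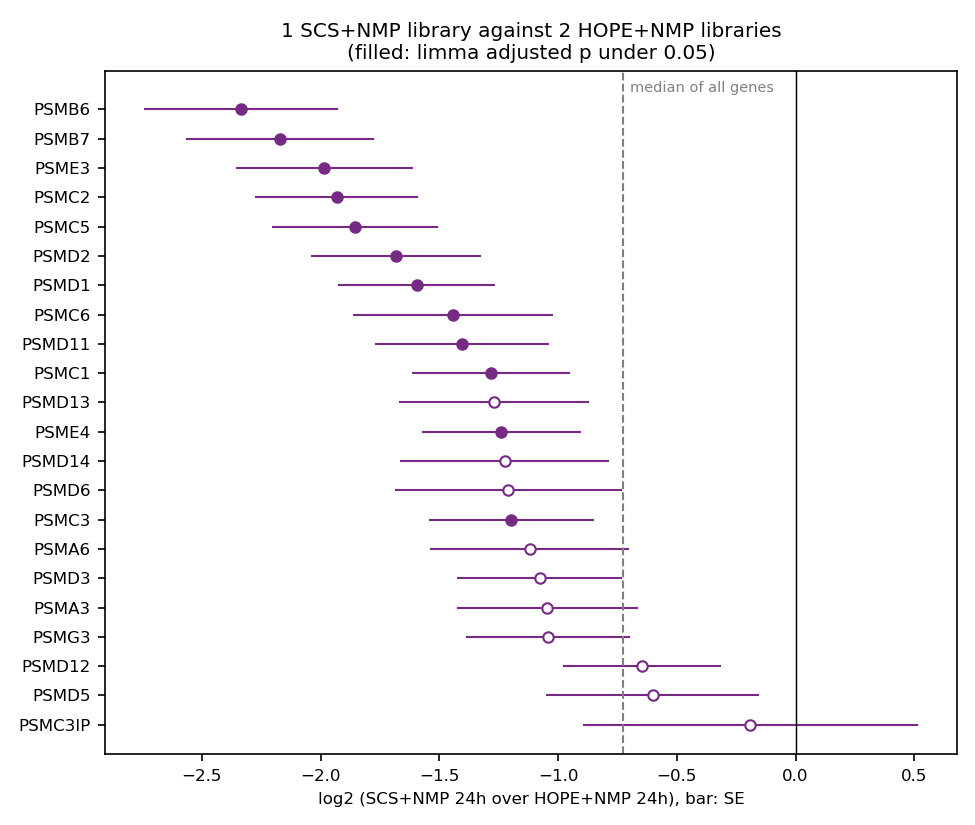
Log2 difference with its SE (x axis) between the SCS library and the HOPE libraries at 24 h after NMP, for each tested proteasome gene (y axis). All 22 lie below 0, from -0.19 for PSMC3IP to -2.34 for PSMB6, and the median of all genes is at -0.73.

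These differences rest on the scaling and on single libraries. TMM scaling and quantile normalization brought the median of all genes to -0.05 and 0.03, left the members at -0.44 and -0.19, and kept only PSMB6 past the threshold. Without HOPE replicate 1 at 24 h 2 members passed, where 7.99% of all genes did, and without HOPE replicate 2 at 24 h 0 did, where 4.84% of all genes did. The split of all called genes was 6.83% higher as deposited, 38.5% with TMM and 48.0% with quantile normalization. The SCS library also had a summed level of 7 cardiomyocyte markers of 3522 TPM, against 54721 to 72085 TPM in the HOPE libraries at 24 h, and all 7 passed as lower. Its 3 tested red cell markers passed as higher, and the 6 T and NK cell markers had positive log2 differences, 4 of which passed, with summed levels of 74.8 TPM in the SCS library and 13.1 to 27.8 TPM in the HOPE libraries at 24 h. All of these cardiomyocyte and T and NK cell markers were above 0 in every library. The part of fewer or poorer cardiomyocytes in the lower proteasome genes was not tested.

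The immunoproteasome could not be followed in arm 2. PSMB8 and PSMB9 had means of 0.298 and 0.0183 TPM and PSMA8, PSMB1, PSMB11 and PSME1 were listed at 0 in all 7 libraries, although PSMB1 belongs to every proteasome and PSMB1, PSMB8, PSMB9 and PSME1 all had counts in every arm 1 library. A listed 0 can be a failed estimate, so no level is read from it. The arms differ in library kit and in table, and PSMA6 and PSMD2 stand under different gene IDs in the 2 tables. PSME2, which only a reference table names in arm 2 and which is not counted among the 28, had 83.8 TPM in the SCS library and 80.3 and 121 TPM in the HOPE libraries at 24 h, a log2 difference of -0.23 ± 0.37 (limma, adjusted p = 0.663). It was the reference-named gene with the smallest difference, beside PSMA1 at -1.32, PSMD4 at -1.32 and PSMA5 at -0.97.

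Between HOPE libraries after NMP, storage for 24 or 48 h against 3 h moved no member past the threshold. With limma, 0 of 22 members passed in the 3 comparisons of 24 h with 3 h, 48 h with 3 h and 48 h with 24 h, and 1, 0 and 0 had an unadjusted p under 0.05, where 13.7%, 7.64% and 5.25% of all genes did. Member medians were 0.01, -0.03 and -0.07, and those of all genes 0.26, 0.03 and -0.21. PSME4 was the 1 member, at 31.0 and 26.9 TPM after 24 h and 18.3 and 17.3 TPM after 3 h, a log2 difference of 0.67 ± 0.27 (limma, adjusted p = 0.351). Between 48 h and 3 h the highest log2 differences were those of PSMC3IP, at 0.59 ± 0.58 with single libraries from 0.27 to 2.21 TPM, and PSMD12, at 0.43 ± 0.27. The lowest were those of PSMC5 and PSMD3, at -0.35 ± 0.29 and -0.34 ± 0.28. These comparisons share libraries, so they are not independent of each other, and with 2 libraries per group the members' spread was wide: PSMB6 averaged 146 ± 12.8 TPM at 3 h, 149 ± 28.2 TPM at 24 h and 142 ± 49.2 TPM at 48 h (SD, n = 2 each).

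Outside the complex, 2 genes of the 21 tested in the ubiquitin pathway list were higher in the SCS library after NMP, and 6 were lower. Over all genes 1.8% passed as higher and 24.6% as lower in this 1 library, so the counts are not read as particular to the list. ZFAND2A, a stress-induced protein that associates with the proteasome, differed by 4.42 ± 0.32 (limma, adjusted p = 0.00129), and UBB, a polyubiquitin gene, by 1.66 ± 0.32 (limma, adjusted p = 0.0125). Among the lower genes were UCHL5, a deubiquitinase of the 19S particle, at -2.60 ± 0.48, and NFE2L1 at -1.36 ± 0.35, with RAD23B, UBQLN1 and UFD1. Of 9 muscle ligases 5 passed as lower, among them TRIM63 at -5.02 ± 0.35 and TRIM55 at -4.55 ± 0.41, both ligases of the sarcomere. Cardiomyocyte markers were lower in the same library, at 3522 TPM against 54721 and 72085 TPM in the HOPE libraries at 24 h. The part of cardiomyocytes in the ligase values was not tested.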

How the data were processed

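The arm 1 table holds normalized counts, a signal that the authors deposited after scaling each library by its own size factor. Whole reads could be recovered for 100% of values (tolerance 1e-06) and entered edgeR 4.0.16 and DESeq2 1.42.0 as alternatives. The arm 2 columns are TPM values that the authors deposited, and another 11 columns match no sample and were not used. The submitters' processing notes name Sscrofa11.1, DESeq2, Subread 1.5.2, featureCounts 2.0.6, STAR 2.5.2b, HISAT2 2.2.1, Trimmomatic 0.36, bcl2fastq 2.17 and FastQC, without their roles. Use of strand was not given in the sources used here.

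Members were matched by symbol in each arm's own table. Gene positions are those of RefSeq for Sscrofa11.1, matched by symbol. The members, gene lists and tests were chosen with earlier results of these data known. Each arm was fitted once with limma 3.58.1 (lmFit, contrasts, eBayes with a trend) in R 4.3.3 on log2(value + 1), over genes with a mean of at least 10 in arm 1 (14141) and 1 in arm 2 (10986), and tested on simulated data. By rule, values were given for members that passed with or without the block, for PSMB7 and the inducible subunits, and for PSME1 and PSME2. The rule also took the 2 highest and 2 lowest members in each comparison of 48 h with the first time. It did so for HOPE with SCS at 48 h as well. Normalized counts of some of these members, such as PSMD3, PSMB8 and PSMB10, were given at 1 storage time only. From other lists, genes that passed were named, except some results that are not reported here, and B2M, NFE2L1, UBA1, RPS27A and the remaining named members were picked after their values were seen. The pig gave all 4 biopsies of a heart and was also fitted as a replicate block (fixed within a kind of storage, random between kinds, correlation 0.44). Deviations from group means correlated in all 36 same-pig pairs, with r of 0.232 to 0.73. Other scalings, filters, pseudocounts, tools and leaving out each pig or library were tried as alternatives.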

Additional observations from a re-analysis of the deposited data

Results flagged for a closer look

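Between 0 and 12 h, the 3 HOPE pigs all moved one way and the 3 SCS pigs all moved the other way in 5 members; the differences between the changes were not tested at 12 h. PSME4 went up in HOPE and down in SCS pigs, with a mean difference of 0.37 on the log2 scale, as did 2.67% of all genes. PSMB8, PSMA7, PSME1 and PSMG1 went down in HOPE and up in SCS pigs, with mean differences of -0.52, -0.44, -0.29 and -0.28, as did 2.86% of all genes. At 24 h PSME4 again went up in HOPE, and PSME2 went down. None of the 5 showed opposite directions at 48 h.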

How the results depend on the processing

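For HOPE against SCS at 24 h, where 2 members passed, 1 passed without a filter on low values, 0 under total-count scaling, 0 under quantile normalization, 0 when only the compared libraries were fitted, 4 with DESeq2 and 5 with the replicate block, and 0 to 10 with a pig left out. For HOPE against SCS at 48 h, where 2 passed, 35 passed under total-count scaling (all higher, with the median of all genes at 1.12 and of the members at 1.23), 5 under total-count scaling without mitochondrially encoded genes, 5 under TMM, 4 with the replicate block, 0 when only the compared libraries were fitted and 0 to 15 with a pig or the 48 h library of SCS pig 5 left out (15 without pig 1, 11 without pig 6). With a pig or that library left out, genes called over the whole table ran from 2 to 2721 at 24 h and from 5 to 3282 at 48 h, and 10 members passed beside 19.2% of all genes at 24 h and 15 beside 23.2% at 48 h without pig 1. Total-count scaling called 57.4% of all genes at 48 h. Genes called at 48 h were 61.4% higher as deposited, 99.5% under total-count scaling, 73.9% without the mitochondrially encoded genes and 74.2% under TMM. At 12 h 0 members passed, and 0 to 6 with a pig left out. For SCS at 48 h against 0 h, where 0 passed, 2 passed with the replicate block and 24 under total-count scaling, all lower, with the median of all genes and of the members both at -0.99. There PSMB10, PSME2 and PSMG3 turned to -0.31, -0.20 and -0.33. For SCS against HOPE at 24 h after NMP, where 12 passed, 1 passed under quantile normalization, 1 under TMM and 9 with the replicate number as a block, and 0 to 13 with a library left out. PSMC3IP ranged from -0.078 (without HOPE replicate 2 at 3 h) to 1.26 with a library left out, at 48 h against 3 h of HOPE after NMP. The causes were not tested. Sizes moved too, for PSMB10 from -1.51 to -0.04 and for PSME2 from -2.17 to -0.52 in HOPE against SCS at 48 h. PSMD1 and PSMD2 each passed at 48 h in 13 of 19 settings and kept a positive difference in all 19, at 0.74 to 1.99 and 0.64 to 1.92. Equal numbers in arm 2 gave r of 0.0608 to 0.179 in 6 pairs. With 2 libraries per group the deviations from the group mean mirror each other, so pairs of replicate 1 repeat those of replicate 2. These r values cannot show whether equal numbers share an animal. Depth in arm 2 is unknown, and 3 pigs per group or 1 SCS library limit every call.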
